A study of Sus scrofa with 15 samples.

Results

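The genes described here are 9 enzymes of the mevalonate pathway (ACAT2, HMGCS1, MVK, PMVK, MVD, IDI1, FDPS, GGPS1 and FDFT1), chosen by symbol and followed in the backfat of Iberian pigs on 3 diets. Of the 9 symbols, 8 were matched to 1 of the 30477 genes of the count files, and 7 were among the 14918 genes with enough counts to be tested. PMVK was not analysed here, because the identifier paired with its symbol was not among those genes, and FDPS had too few counts for a test. The fat samples were biopsies taken at 12 months of age. The control (C) pigs received a control feed, the DOP pigs a feed holding 45% dry olive pulp, and the WCOC pigs a feed without olive by-product together with free access to a silage of 75% wet crude olive cake, the rest being barley straw. All pigs were Iberian. All feeds were restricted, the control feed less strictly than the feeds of the DOP and WCOC pigs. Each diet was given in 1 pen, so diet, pen and feeding level cannot be told apart. From the 44 pigs of the feeding trial, the study chose 5 per diet by the amount and quality of their RNA, and each gave 1 RNA-seq library.

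The mevalonate pathway builds isoprenoids from acetyl-CoA in the cytosol. Its products feed cholesterol synthesis and also ubiquinone, dolichol and the lipid anchors of small GTPases. Cells adjust the pathway to their sterol supply largely through SREBP transcription factors, which act on these genes together with the CCAAT-binding factor NF-Y and with Sp1. In adipose tissue the pathway runs beside fatty acid synthesis, which draws on the same acetyl-CoA.

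The libraries held 22373715 to 34745218 counts on genes, which was 67.2% to 76.6% of each file. Levels are CPM (counts scaled to a common library total) after TMM scaling, and a gene was called a DEG at an adjusted p under 0.05 with a log2FC of at least 0.58 in size, by edgeR's quasi-likelihood test over all tested genes. By the run names, flow cell B carried the DOP libraries and C replicate 5, and flow cell A carried C replicates 1 to 4 with the WCOC libraries. Summed adipocyte markers had medians of 13375 CPM in C, 16120 CPM in DOP and 18045 CPM in WCOC, and 8 of 9 of these markers were matched and tested. Summed skeletal muscle markers (5 of 11 matched) reached 9789, 5734 and 45313 CPM in DOP replicates 2, 4 and 5, against at most 3517 CPM in any C library and 689 CPM in any WCOC library.

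The members lie on 6 chromosomes of the Sscrofa11.1 assembly according to the RefSeq annotation. ACAT2 (ENSSSCG00000004049) spans chromosome 1 from 7600616 to 7612861, HMGCS1 (ENSSSCG00000016872) chromosome 16 from 27936225 to 27957261, MVD (ENSSSCG00000034905) chromosome 6 from 1008100 to 1014303, and IDI1 (ENSSSCG00000029066) chromosome 10 from 68534520 to 68539279. Chromosome 14 holds 3 of them, MVK (ENSSSCG00000009931) from 41320790 to 41357437, GGPS1 (ENSSSCG00000031680) from 55907885 to 55924037 and FDFT1 (ENSSSCG00000026044) from 14976259 to 15010701. Chromosome 4 holds FDPS (ENSSSCG00000006512) from 94500140 to 94514820 and PMVK from 94861500 to 94913743. The promoters of the members whose levels differed most between the diets are given as the 300 bases before the outermost RefSeq start. The 149 bases between MVK and its neighbour MMAB are given too, since MVK varied with these members across pigs. Whether the promoter letters bear on this was not tested. Capitals mark CCAAT on either strand (ATTGG when read on the other), the letters of the NF-Y box, and TCACNCCAC, a relaxed form of the sterol regulatory element. Each motif was searched on both strands. In HMGCS1 a CCAAT and an ATTGG overlap each other. The windows are HMGCS1 (chr16:27957262-27957561, minus strand), ACAT2 (chr1:7612862-7613161, minus strand), MVD (chr6:1007800-1008099, plus strand), IDI1 (chr10:68534220-68534519, plus strand) and MVK to MMAB (chr14:41357438-41357586, minus strand), each read from the RefSeq Sscrofa11.1 genome.
HMGCS1: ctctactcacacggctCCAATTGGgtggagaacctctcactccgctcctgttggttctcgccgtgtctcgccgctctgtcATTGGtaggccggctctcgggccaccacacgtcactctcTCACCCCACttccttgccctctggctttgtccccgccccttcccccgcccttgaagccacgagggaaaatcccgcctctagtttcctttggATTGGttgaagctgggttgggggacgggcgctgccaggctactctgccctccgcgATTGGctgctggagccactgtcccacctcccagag
ACAT2: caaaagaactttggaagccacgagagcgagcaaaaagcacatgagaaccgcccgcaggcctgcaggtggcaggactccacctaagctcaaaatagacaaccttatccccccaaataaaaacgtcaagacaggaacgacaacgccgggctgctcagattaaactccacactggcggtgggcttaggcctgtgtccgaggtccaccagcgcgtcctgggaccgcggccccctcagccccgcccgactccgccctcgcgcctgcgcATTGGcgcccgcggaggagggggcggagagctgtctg
MVD: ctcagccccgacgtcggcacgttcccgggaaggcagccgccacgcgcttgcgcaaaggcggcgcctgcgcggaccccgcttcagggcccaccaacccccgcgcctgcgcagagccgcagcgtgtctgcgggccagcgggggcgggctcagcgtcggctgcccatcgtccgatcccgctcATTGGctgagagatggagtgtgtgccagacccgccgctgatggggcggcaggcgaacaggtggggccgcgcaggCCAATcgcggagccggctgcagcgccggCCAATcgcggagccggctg
IDI1: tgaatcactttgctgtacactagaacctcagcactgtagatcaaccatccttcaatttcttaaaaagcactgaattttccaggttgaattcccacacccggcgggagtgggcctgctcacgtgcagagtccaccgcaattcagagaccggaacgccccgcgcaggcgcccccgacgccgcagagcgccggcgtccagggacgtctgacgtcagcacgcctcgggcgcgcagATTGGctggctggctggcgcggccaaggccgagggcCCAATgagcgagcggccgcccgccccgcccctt
MVK to MMAB: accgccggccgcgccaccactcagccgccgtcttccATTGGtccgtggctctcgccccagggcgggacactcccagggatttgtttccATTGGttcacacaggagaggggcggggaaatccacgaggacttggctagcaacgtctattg

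CCAAT was found in 9 of 9 member promoters, against 35.8% of the 19559 promoter windows of the same length, and at 2 or more places in 8 of 9, against 11.2% of all windows. HMGCS1 held it at 5 places, MVD at 3, and ACAT2 was the member with 1. GGGCGG, the GC box letters, was in 7 of 9 member windows and in 47.6% of all windows. The relaxed sterol element TCACNCCAC occurred in 1 of 9, in HMGCS1, with its first base 181 bases before the start, and in 0.956% of all windows. A longer, stricter form of the sterol regulatory element was in 0 of 9 member windows and in 0.0409% of all windows. These matches describe letters in the windows and were not tested as binding sites.

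Measured per kb of the longest RefSeq transcript, the levels of the members in C covered a wide range. IDI1, which isomerises isopentenyl diphosphate, was first with 115 CPM per kb, followed by MVD with 52.4, ACAT2 with 41.5 and HMGCS1 with 26.0 CPM per kb. FDFT1 had 15.9, MVK 6.81 and GGPS1 2.68 CPM per kb. The order of IDI1 and MVD held within 5 of 5 C pigs and that of MVD and ACAT2 within 4 of 5, although the ranges of these neighbours overlapped. All lower neighbours were separated in C. In WCOC, HMGCS1 (15.9 CPM per kb) and FDFT1 (13.9 CPM per kb) overlapped, with HMGCS1 the higher gene in 2 of 5 pigs, and ACAT2 (23.9 CPM per kb) overlapped HMGCS1 although it was higher in 5 of 5. In DOP, HMGCS1 and FDFT1 overlapped too, with HMGCS1 higher in 5 of 5 pigs, and ACAT2 (36.2 CPM per kb) overlapped MVD (36.0 CPM per kb), with ACAT2 higher in 2 of 5.

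**Figure D1:**
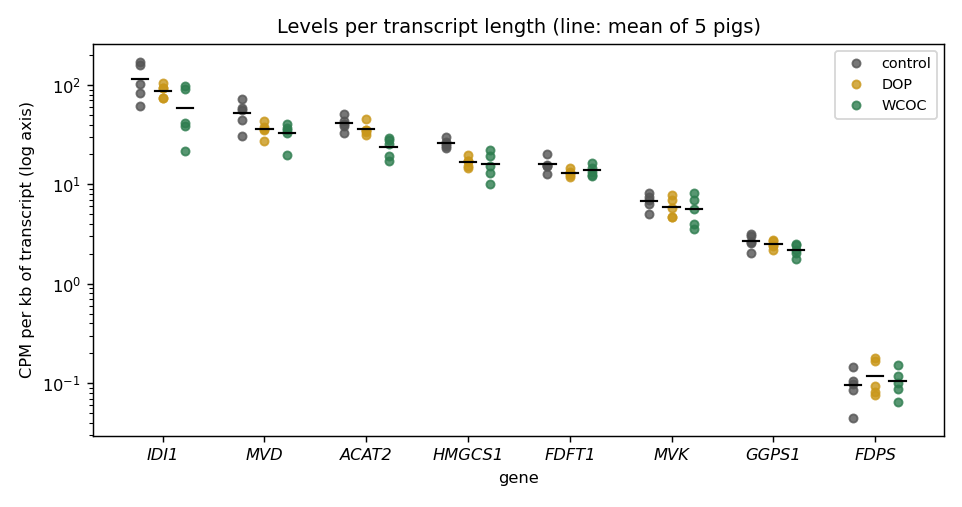
CPM per kb of transcript on a log axis for the 8 matched genes, with 1 point per pig, coloured by diet, and a line at the mean of 5 pigs. IDI1 is highest (mean 115 in C) and FDPS lies far below the others, at 0.096 in C.

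FDPS, the enzyme that makes farnesyl diphosphate, was almost without counts. Its libraries held 2 to 5 counts in C, 3 to 8 in DOP and 3 to 7 in WCOC, or 0.142 ± 0.0531, 0.177 ± 0.0728 and 0.156 ± 0.0501 CPM (SD, n = 5). Per kb this was 0.096 CPM in C, against 15.9 CPM per kb for FDFT1 and 115 CPM per kb for IDI1, the steps beside it. Of the FDPS transcript, 0 stretches of 200 bases or more matched elsewhere in the assembly at 97% identity. The longest transcript has 10 exons in 1479 bases, so a copy with introns could give shorter matches that this search leaves out. Why the files hold so few counts for it was not tested. In a fit without a filter on low counts, the adjusted p for FDPS was 0.742 for DOP against C and 0.867 for WCOC against C (edgeR).

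The first comparison asked how the enzymes differed between the WCOC and C groups. The 2 enzymes at the entrance of the pathway, ACAT2 and HMGCS1, were lower in WCOC, ACAT2 to 0.577 and HMGCS1 to 0.613 of the C level. Among the 7 tested members, 2 were DEGs, both lower, where 6.25% of all tested genes were DEGs in this comparison and 3.93% were DEGs with lower levels. All 7 members had a log2FC below 0, against 49.4% of all genes, and the median log2FC of the members was −0.66, against 0.0043 for all genes. The members were chosen with earlier results of these data known, and most varied together from pig to pig. Their signs are therefore not independent results, here or in the comparisons below.

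ACAT2, the cytosolic thiolase that joins acetyl-CoA units to acetoacetyl-CoA, measured 84.5, 66.4, 63.3, 71.4 and 54.3 CPM in the C pigs. In WCOC it measured 28.2, 42.2, 45.9, 31.9 and 47.7 CPM. All 5 WCOC pigs lay below the lowest C pig, so the groups did not overlap. Groups that did not overlap, with WCOC lower, were found for 3.87% of all tested genes. The means were 68.0 ± 11.12 CPM in C and 39.2 ± 8.68 CPM in WCOC (SD, n = 5), a log2FC of −0.79 (SE 0.158, 95% CI −1.13 to −0.46, adjusted p = 0.00793). The call held in each of the 15 fits that left out 1 library, with adjusted p from 0.00645 to 0.0245. Within lane 2 of flow cell A, the lane that held C replicates 1 to 4 and WCOC replicates 1 to 3, the log2FC was −0.89 and the adjusted p 0.0805.

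HMGCS1, the synthase that adds a further acetyl-CoA on the way to mevalonate, measured 138, 153, 133, 127 and 119 CPM in C. The WCOC pigs had 52.1, 79.0, 113, 66.4 and 100.1 CPM. Again no WCOC pig reached the lowest C pig, but WCOC replicate 3 came close to it. The means were 134 ± 12.8 CPM and 82.2 ± 24.8 CPM, a log2FC of −0.71 (SE 0.169, 95% CI −1.07 to −0.34, adjusted p = 0.0192). The call was lost without WCOC replicate 1 (log2FC −0.58, under the fold limit, adjusted p = 0.0382) and without WCOC replicate 4 (−0.63, adjusted p = 0.0513). On flow cell A alone it was −0.75 with an adjusted p of 0.0583.

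**Figure D2:**
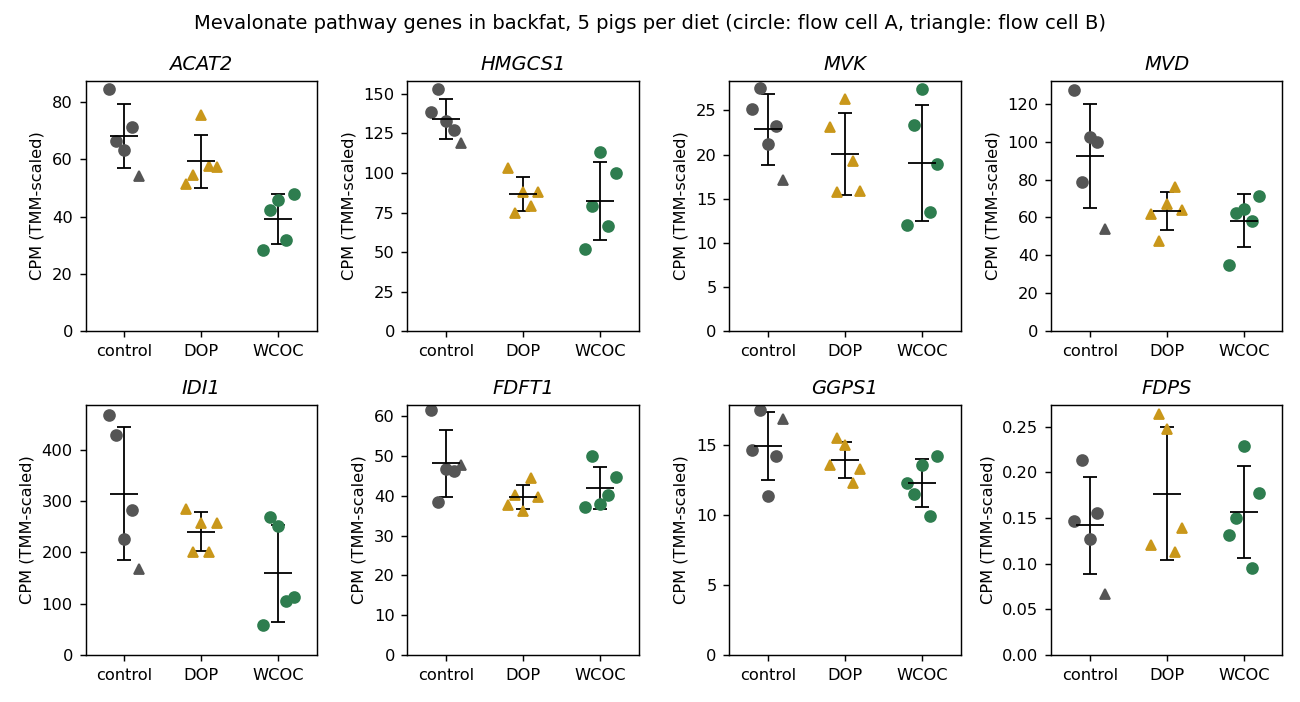
CPM of the 8 matched genes in each pig, with 1 panel per gene, linear axes that start at 0, circles for flow cell A and triangles for flow cell B, and the mean ± SD of 5 pigs in black. For ACAT2 and HMGCS1 every WCOC pig lies below every C pig, and for HMGCS1 every DOP pig does too.

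The later enzymes were lower on average without passing the limits. MVD, which decarboxylates mevalonate diphosphate to isopentenyl diphosphate, measured 127, 78.8, 102, 99.6 and 53.8 CPM in C and 34.9, 62.1, 64.5, 58.2 and 71.5 CPM in WCOC. All WCOC pigs lay under the C median, but C replicate 5 lay within the WCOC range. The log2FC was −0.66 (SE 0.215, adjusted p = 0.0642). Without C replicate 5 it was −0.81 with an adjusted p of 0.0253, and flow cell A alone gave −0.82 and 0.0472.

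The levels of IDI1 were uneven, with coefficients of variation of 41.2% in C and 59.4% in WCOC, above those of the other members in these diets, but 15.8% in DOP. It measured 467, 429.6, 226, 283 and 168 CPM in C, and 58.8, 269, 251, 105 and 112 CPM in WCOC. WCOC replicates 1, 4 and 5 lay below all C pigs, while replicates 2 and 3 stood among them. The log2FC of −0.98 (SE 0.372, 95% CI −1.78 to −0.19) was the furthest from 0 of the 7 members, with an adjusted p of 0.109. Without WCOC replicate 2 it was −1.26 and the adjusted p 0.0410. IDI1 was also the member with repeated sequence by this search. Of its longest transcript, 272 bases (9.95%) matched 85 other places of the assembly at 97% identity or more, which makes its counts less certain. The other members had 0 such places in a search that leaves out matches under 200 bases.

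MVK, GGPS1 and FDFT1 differed less. MVK, the kinase that phosphorylates mevalonate, ran from 17.1 to 27.6 CPM in C and from 11.98 to 27.5 CPM in WCOC (log2FC −0.26, SE 0.221, adjusted p = 0.474). GGPS1, which makes geranylgeranyl diphosphate for protein prenylation, ran from 11.3 to 17.5 CPM and from 9.88 to 14.2 CPM (log2FC −0.28, SE 0.128, adjusted p = 0.178). FDFT1, the squalene synthase that commits farnesyl diphosphate to sterols, ran from 38.5 to 61.6 CPM and from 37.1 to 50.01 CPM (log2FC −0.20, SE 0.115, adjusted p = 0.288). The 95% intervals reached −0.73 for MVK, −0.55 for GGPS1 and −0.44 for FDFT1, so decreases up to these sizes lie within them. At an unadjusted p under 0.05, 5 of the 7 members passed, against 26.4% of all genes. DESeq2, the tool of the study, called 4 of 7 with the same limits, adding MVD (log2FC −0.67, adjusted p = 0.0202) and IDI1 (−0.99, adjusted p = 0.0376). The 6.25% of all genes given above is the share by edgeR, so it cannot be set beside this count. Of all 14918 tested genes, DESeq2 called at most 1493, the highest count of any alternative in this comparison. It called more macrophage markers than edgeR as well, 9 of 10 against 5. Of the cell division genes, both tools called 9 of 10.

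**Figure D3:**
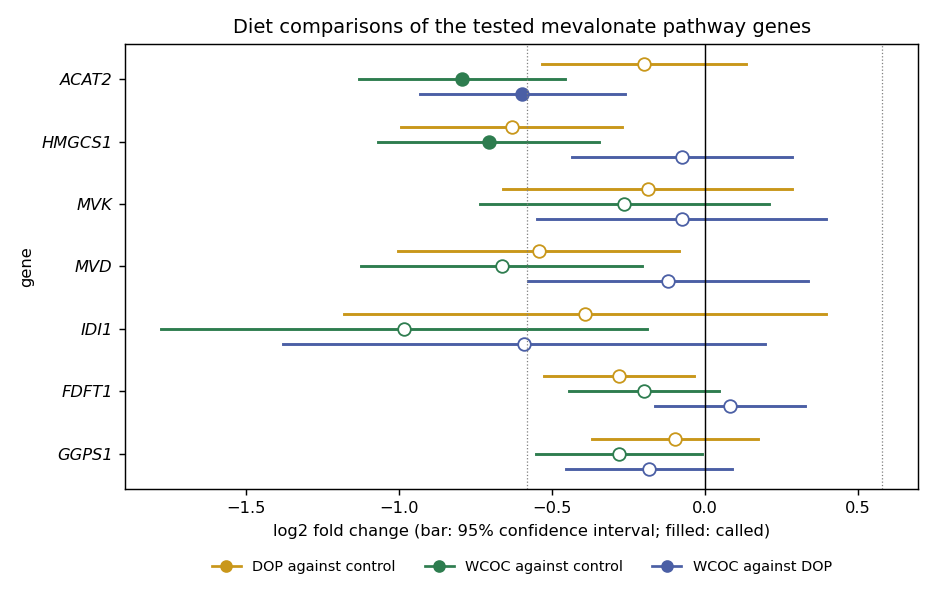
log2FC with its 95% confidence interval for the 7 tested members in the 3 comparisons, by edgeR, with filled points for DEGs and dotted lines at −0.58 and 0.58. ACAT2 (−0.79) and HMGCS1 (−0.71) are filled for WCOC against C, ACAT2 (−0.60) is filled for WCOC against DOP, and no point is filled for DOP against C.

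Markers of other cells also differed between WCOC and C. Summed macrophage markers ran from 257 to 765 CPM in C and from 124 to 341 CPM in WCOC, and 5 of 10 were DEGs, all lower. Cell division genes summed to 56.6 to 102 CPM in C and to 18.7 to 34.3 CPM in WCOC. Of these, 9 of 10 tested genes were DEGs, all lower. Of the 8 adipocyte markers, 1 was a DEG and higher, 2 had a log2FC below 0, and the median log2FC was 0.42. Their part in the differences of the pathway was not tested. In bulk tissue, fewer cells of a type and less RNA per cell cannot be told apart. Without C replicates 3 and 5, which had the most macrophage RNA (591 and 765 CPM), the log2FC of ACAT2 was −0.92 (adjusted p = 0.0186) and that of HMGCS1 −0.76 (adjusted p = 0.0668). These pigs also had the lowest summed members of the C group, 603 and 477 CPM. Leaving them out therefore raises the C level whatever their macrophage RNA, and the fit cannot tell these apart.

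The second comparison set DOP against C. HMGCS1 was again the enzyme with separated groups, with levels in DOP at 0.646 of those in C, but 0 of 7 members were DEGs with edgeR, where 0.764% of all tested genes were, 0.55% with lower levels. The C pigs were the same as in the first comparison. The DOP pigs measured 103, 74.8, 87.8, 79.1 and 88.1 CPM, all below the lowest C pig (119 CPM), as was the case for 1.76% of all genes. The log2FC was −0.63 (SE 0.169, 95% CI −0.99 to −0.27, unadjusted p = 0.00203 and adjusted p = 0.0898 by edgeR). DESeq2 gave an adjusted p of 0.0133 for the same gene and made it the 1 member called. It called 495 of all tested genes in this comparison, against 114 with edgeR. Limma-voom called 0 members. Without WCOC replicate 1, which enters the shared estimate of spread, edgeR gave HMGCS1 an adjusted p of 0.0497. C replicate 5, the C library on the flow cell of the DOP libraries, was above 5 of 5 DOP pigs.

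The other members overlapped between DOP and C. MVD had a log2FC of −0.54 (SE 0.215, adjusted p = 0.213) and IDI1 of −0.39 (SE 0.369, adjusted p = 0.637). FDFT1 (−0.28, adjusted p = 0.226), ACAT2 (−0.20, adjusted p = 0.557), MVK (−0.19, adjusted p = 0.715) and GGPS1 (−0.10, adjusted p = 0.748) were closer to 0. All 7 values were below 0, against 47.8% of all genes, with a median of −0.28 against 0.011, and 3 of 7 members had an unadjusted p under 0.05, against 17.6% of all genes. These signs depended on the flow cell for 4 members. With flow cell as a covariate the log2FC was 0.13 for ACAT2, 0.23 for MVK, 0.24 for MVD and 0.52 for IDI1. It stayed below 0 for HMGCS1, GGPS1 and FDFT1. Over the 12 alternatives that did not leave out a single library, this one among them, HMGCS1 ran from −0.69 to −0.46. IDI1 in C replicate 5 (168 CPM) was under all DOP pigs (199.8 to 285 CPM). DOP and flow cell were so nearly the same split that 1 library carries the distinction. Without DOP replicates 2, 4 and 5, which had the most skeletal muscle RNA, HMGCS1 had a log2FC of −0.49 (adjusted p = 0.744) and MVK turned to 0.12 (adjusted p = 0.975).

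Between the olive diets, ACAT2 was the member that passed the test. It measured 51.2, 54.6, 75.3, 57.6 and 57.4 CPM in DOP, all above the highest WCOC pig (47.7 CPM), and 4.77% of all genes had groups separated in this direction. The log2FC of WCOC against DOP was −0.60 (SE 0.157, 95% CI −0.93 to −0.26, adjusted p = 0.0267), so 1 of 7 members was a DEG, where 7.76% of all genes were, 5.11% with lower levels. The call was lost without DOP replicate 3 (−0.49, adjusted p = 0.0514), WCOC replicate 1 (−0.50, adjusted p = 0.0602) or WCOC replicate 4 (−0.52, adjusted p = 0.0679), without the 3 DOP pigs with much muscle RNA (−0.70, adjusted p = 0.195), and with flow cell as a covariate (−0.99, adjusted p = 0.287).

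HMGCS1 did not pass the test between the olive diets, with 86.6 ± 10.8 CPM in DOP and 82.2 ± 24.8 CPM in WCOC. Its log2FC between them was −0.07, with a 95% CI from −0.43 to 0.28 (adjusted p = 0.815), so a difference up to these bounds was not told apart from 0. IDI1 had a log2FC of −0.59 (SE 0.370, adjusted p = 0.323), and the remaining members lay between −0.18 for GGPS1 and 0.08 for FDFT1. Of the 7 members, 6 had a log2FC below 0, against 49.9% of all genes, and 1 had an unadjusted p under 0.05, against 28.1%.

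The WCOC pigs did not form a uniform group. Relative to each gene's mean over the 15 libraries, WCOC replicate 1 was below in 7 of 7 members with a median of −0.89 on the log2 scale, and WCOC replicate 4 in 7 of 7 with −0.54. The medians of WCOC replicates 2, 3 and 5 were −0.13, 0.00042 and 0.047, and those of replicates 3 and 5 lay inside the range of the DOP pigs (−0.090 to 0.147). The C pigs ran from 0.027 in replicate 5 to 0.524 in replicate 1. WCOC replicates 1 and 4 also had the lowest 2 macrophage sums, 124 and 130 CPM, but WCOC replicate 3, with 147 CPM, was not low in the pathway. Skeletal muscle markers summed to 204 and 689 CPM in WCOC replicates 1 and 4, within the range of C.

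**Figure D4:**
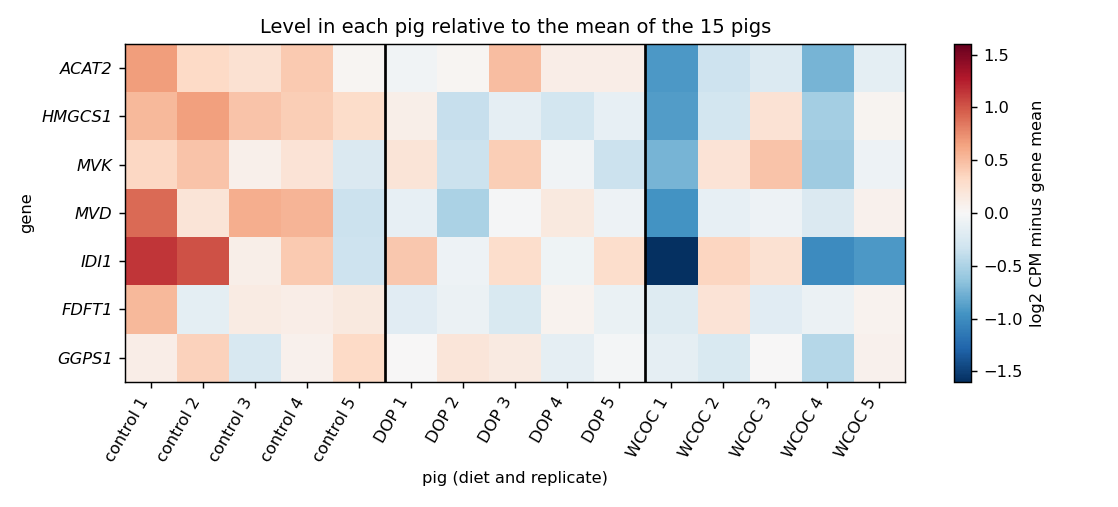
Level of the 7 tested members in each pig as log2 CPM minus the gene's mean over the 15 pigs, with columns ordered by diet (black lines between diets), red above and blue below the mean. WCOC 1 and WCOC 4 are below the mean in 7 of 7 members, and control 1 and control 4 are above it in 7 of 7.

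Within diets the early and middle enzymes rose and fell together from pig to pig. Over the 15 libraries, after subtraction of diet means, the 21 pairs of members had correlations of log2 CPM from −0.324 (MVD and GGPS1) to 0.841 (MVK and IDI1), with a median of 0.482, and 18 were above 0. ACAT2, HMGCS1, MVK, MVD and IDI1 were joined by values from 0.571 to 0.841. GGPS1 and FDFT1, the enzymes of the branches after farnesyl diphosphate, had the lowest values and were joined to each other at −0.253. These points share their libraries and scaling, and the values are a description of 15 pigs.

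Of 11126 other named genes with a mean of at least 1 CPM, the gene most like the mean of the members within diets was FABP3 (r = 0.926, n = 15 libraries), which encodes a cytosolic fatty acid-binding protein. It was followed by MSMO1, a demethylation enzyme of the later cholesterol steps (r = 0.892), by ATP13A1, a transport ATPase of the endoplasmic reticulum (0.880), by NT5C3B, a cytosolic nucleotidase (0.854), and by HIGD1A, a mitochondrial membrane protein (0.854). FABP3 measured 1750.1, 1291, 854, 1356 and 733 CPM in C, 1209.9, 1166, 1474, 1525 and 1317 CPM in DOP, and 299.5, 618, 832, 276 and 584 CPM in WCOC. WCOC replicates 1 and 4 were the lowest 2 pigs for this gene as well. It was a DEG in WCOC against C (log2FC −1.20, SE 0.295, adjusted p = 0.0219), a call lost without WCOC replicate 1 and in lane 2 of flow cell A alone, and its log2FC in DOP against C was 0.16 (adjusted p = 0.822). HIGD1A was also a DEG in WCOC against C (−0.62, SE 0.0908, adjusted p = 0.00133), lost without WCOC replicate 1 or WCOC replicate 4 and in lane 2 of flow cell A alone. NT5C3B was a DEG there too, a call that held in 4 of 15 fits without 1 library and in 7 of 14 other alternatives. In WCOC against DOP, FABP3 and HIGD1A were DEGs in 15 of 15 fits without 1 library. Both calls were lost with flow cell as a covariate and without DOP replicates 2, 4 and 5 together. MSMO1 was not a DEG in WCOC against C (log2FC −0.33, adjusted p = 0.152). Of the listed enzymes from squalene to cholesterol, EBP (r = 0.838), CYP51A1 (0.826) and SC5D (0.825) were also near the top, at ranks 8, 15 and 16.

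Upstream of the pathway, genes that supply or use the same acetyl-CoA had 5 of 7 listed members tested. ACLY, the ATP citrate lyase that releases cytosolic acetyl-CoA and the gene with the highest mean CPM of the list (4166 CPM), was the 1 of 5 that was a DEG in WCOC against C. Its levels were 5973, 4933, 4124, 8079.7 and 3284 CPM in C and 871, 2172, 3613, 1916 and 2995 CPM in WCOC (log2FC −1.19, SE 0.317, adjusted p = 0.0302). The groups overlapped through C replicate 5 and WCOC replicate 3, and the call was lost without C replicate 1, C replicate 4 or WCOC replicate 4, on flow cell A alone, in its lane 2 alone and in a fit of the 2 diets compared. In WCOC against DOP, ACLY (−1.09, adjusted p = 0.0380) and ACSS2, which makes acetyl-CoA from acetate (−0.76, adjusted p = 0.0424), were DEGs, but these calls held in 7 and 4 of the 15 fits that left out 1 library and were lost with flow cell as a covariate and without DOP replicates 2, 4 and 5 together. In DOP against C, 0 of 5 were DEGs with edgeR, DESeq2 or limma-voom, and 0 had an unadjusted p under 0.05.

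Downstream, 10 of 12 listed enzymes from squalene to cholesterol were tested, and SQLE was the 1 DEG of these in DOP against C. SQLE, the squalene epoxidase that follows FDFT1, measured 55.2, 57.9, 53.9, 46.1 and 49.7 CPM in C and 27.8, 20.2, 29.9, 29.6 and 22.9 CPM in DOP. The groups did not overlap, and the log2FC was −1.01 (SE 0.150, adjusted p = 0.0268). In WCOC it was 29.1 CPM in replicate 1 and 47.0 to 53.4 CPM in the others, and WCOC against C gave −0.21 (adjusted p = 0.397) and WCOC against DOP 0.80 (SE 0.150, adjusted p = 0.00542). The latter call was lost with flow cell as a covariate and without DOP replicates 2, 4 and 5 together. The DOP call was lost with flow cell as a covariate and without C replicate 3, C replicate 5, DOP replicate 2, DOP replicate 4 or DOP replicate 5, and also without C replicates 3 and 5 together or DOP replicates 2, 4 and 5 together. DHCR7, which catalyses a final reduction to cholesterol, was lower in WCOC than in DOP (−0.85, SE 0.241, adjusted p = 0.0352), a call that held in 8 of 15 fits without 1 library and was lost with flow cell as a covariate, in a fit of the 2 diets compared and without DOP replicates 2, 4 and 5 together. The median log2FC of these 10 enzymes was −0.33 in WCOC against C, with 0 DEGs by edgeR (7 with an unadjusted p under 0.05, 1 called by DESeq2 and 0 by limma-voom), and −0.11 in DOP against C.

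Among the sterol-sensing genes, 7 of 8 were tested and 2 were DEGs in WCOC against C, both lower. INSIG1, which retains the SCAP and SREBP complex in the endoplasmic reticulum and is itself an SREBP target, measured 291, 228, 226, 267 and 222 CPM in C and 141, 141, 133, 143 and 167 CPM in WCOC. All WCOC pigs lay below all C pigs and close together (log2FC −0.77, SE 0.113, adjusted p = 0.00133), and the call held in each of 15 fits without 1 library and in each of 14 other alternatives. STARD4, a cytosolic sterol carrier, was lower as well (−1.23, SE 0.257, adjusted p = 0.0101), at 8.62 ± 2.68 CPM in C and 3.67 ± 1.08 CPM in WCOC, a call lost without C replicates 3 and 5 and in lane 2 of flow cell A alone. SREBF1, which encodes an SREBP and had the highest mean CPM of the list (397 CPM), had a log2FC of −0.23 (adjusted p = 0.303). For SREBF2, which encodes a further SREBP, it was −0.19 (adjusted p = 0.373). Within diets the correlation of INSIG1 with the mean of the members was 0.326, and WCOC replicates 1 and 4 did not stand apart from the other WCOC pigs for this gene. In DOP against C and in WCOC against DOP, 0 of the 7 were DEGs with edgeR or limma-voom, 4 and 2 had an unadjusted p under 0.05, and DESeq2 called 1 and 0.

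The users of the isoprenoid products held few calls. Of 9 genes for dolichol, ubiquinone, menaquinone, heme A and tRNA modification, 7 were tested and 0 were DEGs in any comparison, with medians of −0.21 in WCOC against C and −0.12 in DOP against C. DESeq2 and limma-voom called 0 of them as well, while 1, 3 and 4 of the 7 had an unadjusted p under 0.05 in DOP against C, WCOC against C and WCOC against DOP. NUS1, a dolichol synthase subunit with the highest mean CPM of the list (34.6 CPM), had a log2FC of −0.28 in WCOC against C (adjusted p = 0.0306), under the fold limit. Of 10 prenyltransferase and CAAX-processing genes, 7 were tested and 1 was a DEG, CHML, a Rab escort protein that was higher in WCOC than in DOP (0.63, SE 0.151, adjusted p = 0.0181), a call lost with flow cell as a covariate, without DOP replicate 4, WCOC replicate 1 or WCOC replicate 4, and without DOP replicates 2, 4 and 5 together. ICMT, the methyltransferase that finishes prenylated proteins, had the highest mean CPM of the list (259 CPM) and a log2FC of 0.03 in WCOC against C (adjusted p = 0.879).

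Neighbouring genes were examined because the strand option of the counting is not given in the sources used here. ACAT2 overlaps 94 bases of TCP1, a chaperonin subunit gene on the opposite strand. TCP1 measured 91.2 to 101 CPM in C and 69.1 to 88.0 CPM in WCOC (log2FC −0.28, SE 0.0696, adjusted p = 0.0242), beside the −0.79 of ACAT2. Counts within the overlap cannot be assigned with certainty. MMAB, whose start lies 150 bases from that of MVK in the opposite direction and which acts in vitamin B12 metabolism, had a log2FC of −0.14 in WCOC against C (adjusted p = 0.643). KCNN3, a potassium channel gene that overlaps PMVK by 113 bases on the same strand, had −0.50 (adjusted p = 0.271). ARID4B, whose start lies 296 bases from that of GGPS1, and an uncharacterised gene 168 bases from the start of HMGCS1 were not matched to a gene of the files.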

How the data were processed

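Backfat RNA of 15 pigs, 5 per diet, was measured by RNA-seq. The authors aligned untrimmed read pairs to Sscrofa11.1 with HISAT2 in strand-specific mode, and the deposited values are raw HTSeq counts per Ensembl gene, neither normalized nor pooled. Tool versions, the annotation release and the strand option of the counting are not given in the sources used here. The 5 summary lines per file stayed out of library sizes and tests. Diets and replicate numbers came from the labels, flow cells from the run names. No pair of libraries of a diet agreed within sampling noise.

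Counts were analysed with edgeR 4.0.16 in R 4.3.3. Genes were kept by filterByExpr, scaled by TMM, and the 15 libraries entered a single quasi-likelihood fit with a mean for each diet (common dispersion 0.0814). The tests were two-sided with Benjamini-Hochberg adjustment over 14918 genes. Log2 CPM used a prior count of 1. With 1 pen per diet, p-values measure only the spread between pigs. Symbols came from a gene name table (14864 of 30477 genes), positions and sequences from RefSeq. One transcript per gene was compared with the assembly by blastn 2.17.0. The workflow was tested on simulated data. Python 3.11.15 with pandas 2.3.3, numpy 2.4.6 and matplotlib 3.10.9 made the other tables and the plots.

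Named genes are the 9 members, the genes called in 5 pathway lists and the most abundant of each, genes that overlap a member or start within 1 kb of one, and the 5 genes most correlated with the members within diets. EBP, CYP51A1, SC5D and SREBF2 were named after their values were seen. A gene that this rule would name is not reported here. The members and lists were chosen with earlier results of these data known. Marker lists for endothelial cells, T cells and epidermis were summed too, with medians of 867, 8.73 and 15.0 CPM in C, 1045.0, 5.68 and 4.64 CPM in DOP and 1164, 6.45 and 4.34 CPM in WCOC.

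Alternatives were DESeq2 1.42.0, limma-voom (limma 3.58.1), robust fitting, DESeq2 size factors, TMM computed after removal of the 50 most abundant genes, a minimum of 10 counts in every library or no filter, a fit to the compared diets alone, a replicate block, a flow cell term, only flow cell A or only its lane 2, adjusted p alone, and each library left out. After the data were seen, fits without DOP replicates 2, 4 and 5 and without C replicates 3 and 5 were added.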

Additional observations from a re-analysis of the deposited data

Results flagged for a closer look

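ACAT2 in DOP replicate 3 measured 75.3 CPM and stood apart from the other DOP pigs (51.2 to 57.6 CPM), with a gap of 0.736 of the range of the group, above the limit of 0.71 for 5 samples. Chance flags about 1 in 20 such groups, and 24 groups were checked.

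The level of ACAT2 differed between the WCOC and DOP pigs, with a log2FC of −0.60 (edgeR, adjusted p = 0.0267). The call was lost without DOP replicate 3 (−0.49, adjusted p = 0.0514), without WCOC replicate 1 (−0.50, 0.0602) or WCOC replicate 4 (−0.52, 0.0679), with flow cell as a covariate (−0.99, 0.287), with the replicate block (−0.60, 0.0692) and without DOP replicates 2, 4 and 5 (−0.70, 0.195). Diet cannot be told apart from pen, and DOP was nearly the same split as flow cell B.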

How the results depend on the processing

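Across all alternatives for the 7 members, 549 of 581 results kept their direction and their side of the limits. Of the others, 12 lost a call, 8 gained one and 12 reversed. Most of the 549 were results without a call that stayed so, and the 12 lost calls fell on ACAT2 and HMGCS1. ACAT2 in WCOC against C kept its call in 15 of 15 fits that left out 1 library and in 13 of 14 others. HMGCS1 there kept it in 13 of 15 and 11 of 14, and ACAT2 in WCOC against DOP in 12 of 15 and 9 of 12. For DOP against C, the count of members called was 0, and 1 with DESeq2, and the fits that left out 1 library gave 0 to 1. Flow cell as a covariate moved the median log2FC to 0.13 and reversed ACAT2 (0.13), MVK (0.23), MVD (0.24) and IDI1 (0.52), and MVK also reversed without DOP replicates 2, 4 and 5 (0.12). For WCOC against C the count of 2 became 4 with DESeq2, 0 in lane 2 of flow cell A alone and 1 without C replicates 3 and 5, and it ran from 1 to 3 when 1 library was left out. For WCOC against DOP the count of 1 became 0 with the replicate block, with flow cell as a covariate and without DOP replicates 2, 4 and 5, and ran from 0 to 1 when 1 library was left out. Flow cell as a covariate gave a median of −0.58 there and reversed GGPS1 (0.043). Leaving out 1 library gave ranges in this comparison of −0.22 to 0.052 for HMGCS1, −0.24 to 0.053 for MVK and −0.21 to 0.016 for MVD, with reversals without DOP replicate 3, WCOC replicate 1 or WCOC replicate 4. The causes were not tested.

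The count of all genes called in DOP against C was 114, and it was 495 with DESeq2, 19 with limma-voom, 2 with the diets compared alone, 0 with the replicate block, 0 under both added settings and 0 to 200 when 1 library was left out. In WCOC against C it was 933, with 473 under the block, 486 on flow cell A, 34 in its lane 2, 289 without C replicates 3 and 5, 1493 by adjusted p alone and 468 to 1163 without 1 library. In WCOC against DOP it was 1158, with 561 under the block, 1 with flow cell as a covariate, 80 without DOP replicates 2, 4 and 5, 1842 by adjusted p alone and 639 to 1291 without 1 library. The listed pathway genes called numbered 1, 3 and 5 in the 3 comparisons and ran from 0 to 2, 1 to 6 and 0 to 8 over all alternatives.

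The replicate numbers did not pair the libraries. Correlations of same-numbered libraries ran from −0.50 to 0.345, 3 of 15 pairs were above 0.1, and 1 library correlated best with its own number. With the replicate block, ACAT2 in WCOC against DOP had an adjusted p of 0.0692. The block also lost the calls of SQLE in DOP against C and of ACLY, FABP3 and NT5C3B in WCOC against C. In WCOC against DOP it lost those of ACLY, ACSS2, DHCR7 and CHML. FDPS held 2 to 8 counts per library, too few to test, and why was not tested.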
